A study of Mus musculus with 16 samples.

Results

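The insulin-like growth factor (IGF) system of cultured mouse chondrocytes was described through 9 genes, namely those of the ligands Igf1 and Igf2, of the receptor Igf1r, and of the binding proteins Igfbp2, Igfbp3, Igfbp4, Igfbp5, Igfbp6 and Igfbp7. They are 9 of the 55414 genes with an entry in each library. The genes were chosen by symbol, as members of one ligand, receptor and binding protein system, at a time when results of these same libraries were known. Their changes and adjusted p values below come from fits to the whole gene table, describe these libraries, and give no independent support to the choice.

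IGF1 and IGF2 are secreted growth factors that act mainly through the receptor tyrosine kinase IGF1R. In cartilage they favor proliferation, matrix synthesis and longitudinal growth. Most IGF outside cells is held by the IGF binding proteins, which can withhold the ligands from the receptor, carry them, or release them after proteolysis. IGFBP2 to IGFBP6 bind IGFs with high affinity, whereas IGFBP7 binds them weakly and is often regarded as a related protein.

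Chondrocyte-enriched cells came from limb epiphyses of 3- to 4-day-old mice on a C57BL/6 background, pooled from males and females. The Notch2 mutant cells were from heterozygous Notch2tm1.1Ecan mice, in which a stop codon removes the PEST domain from one NOTCH2 allele product in every tissue and stabilizes the protein, and the Wild type cells were from control littermates. Each genotype was exposed for 6 h to vehicle (PBS) or to tumor necrosis factor α (TNF) at 50 ng/ml, with 4 biological replicates for each of the 4 groups and 16 libraries in all. The sample annotation gives serum deprivation for the TNF groups only, while the study describes the exposure as serum free throughout, and if the annotation is right TNF and serum removal cannot be told apart in the comparisons of TNF with vehicle.

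Counts on genes ranged from 3439726 in Notch2 mutant TNF replicate 4 to 44237300 in Notch2 mutant vehicle replicate 4. Levels are given as CPM, the counts of a gene relative to the TMM-scaled total of its library. The mRNA of Heyl, a Notch target, was at 1.95 ± 0.41 CPM in Notch2 mutant and 0.23 ± 0.062 CPM in Wild type cells with vehicle (SD, n = 4), and that of Notch2 itself was at 152 ± 14 and 130 ± 20 CPM (adjusted p = 0.283). Transcripts of the truncated allele are not separated in gene counts, so the Notch2 level does not test the genotype labels. The 11 chondrocyte markers, Col2a1 and Acan among them, were detected in every group. Fibroblast and perichondrium markers were abundant too, with a summed level of 31052 to 42649 CPM over the 16 libraries.

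Wild type replicate 4 stood apart under both treatments. On the first principal component, which held 86.8% of the variance and separated TNF from vehicle, Wild type vehicle replicate 4 was at 9.53 while the other vehicle libraries were between 43.0 and 45.7. Wild type TNF replicate 4 was at -31.7, against -42.9 to -40.1 for the other TNF libraries. Icam1, an adhesion molecule gene induced by TNF, was at 439 CPM in Wild type vehicle replicate 4 and at 34.4 to 40.4 CPM in the other Wild type vehicle libraries. The fitted changes of the 9 genes with TNF in Wild type cells and between genotypes are therefore given with and without them. So is the difference of the TNF response between genotypes for Igfbp2, Igfbp3, Igfbp4 and Igfbp5. Levels per length and marker sums are over all 4 replicates.

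All 9 genes passed the filter of at least 10 counts over the compared libraries in every comparison. With TNF, 8 of the 9 genes changed in Wild type cells, 4 upward and 4 downward, where 23.3% of all genes tested rose and 20.9% fell. All 9 changed in Notch2 mutant cells, 4 upward and 5 downward, beside 22.6% and 21.9% of all genes. A change of at least 1 on the log2 scale was passed by 3 members in Wild type and 4 in Notch2 mutant cells, against 11.8% and 13.9% of all genes. The median log2 change with TNF over the 9 genes was -0.10 in Wild type and -0.26 in Notch2 mutant cells, and over all genes 0.04 and 0.03.

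Between genotypes with vehicle, 4 of the 9 genes were higher and 2 lower in Notch2 mutant cells, where 6.19% of all genes were higher and 4.35% lower. With TNF, 5 were higher and 1 lower, beside 5.63% and 4.31% of all genes. No member passed a log2 difference of 1 between genotypes, which 1.26% of all genes did with vehicle and 1.41% with TNF. Over the members the median log2 difference was 0.19 with vehicle and 0.26 with TNF, and over all genes it was -0.002 and -0.01. The response to TNF differed between genotypes for 2 members, Igfbp5 and Igfbp2, and for 0.474% of all genes. No member passed a log2 difference of 1 in the response, as 0.0469% of all genes did. Adjusted p values are from edgeR's quasi-likelihood test, corrected by Benjamini and Hochberg's method across the genes of each fit, and log2 changes are given with their SE. Confidence intervals rest on a normal approximation and are narrower than that test would give. They are for a single gene, and calls rest on the adjusted p values alone.

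**Figure D1:**
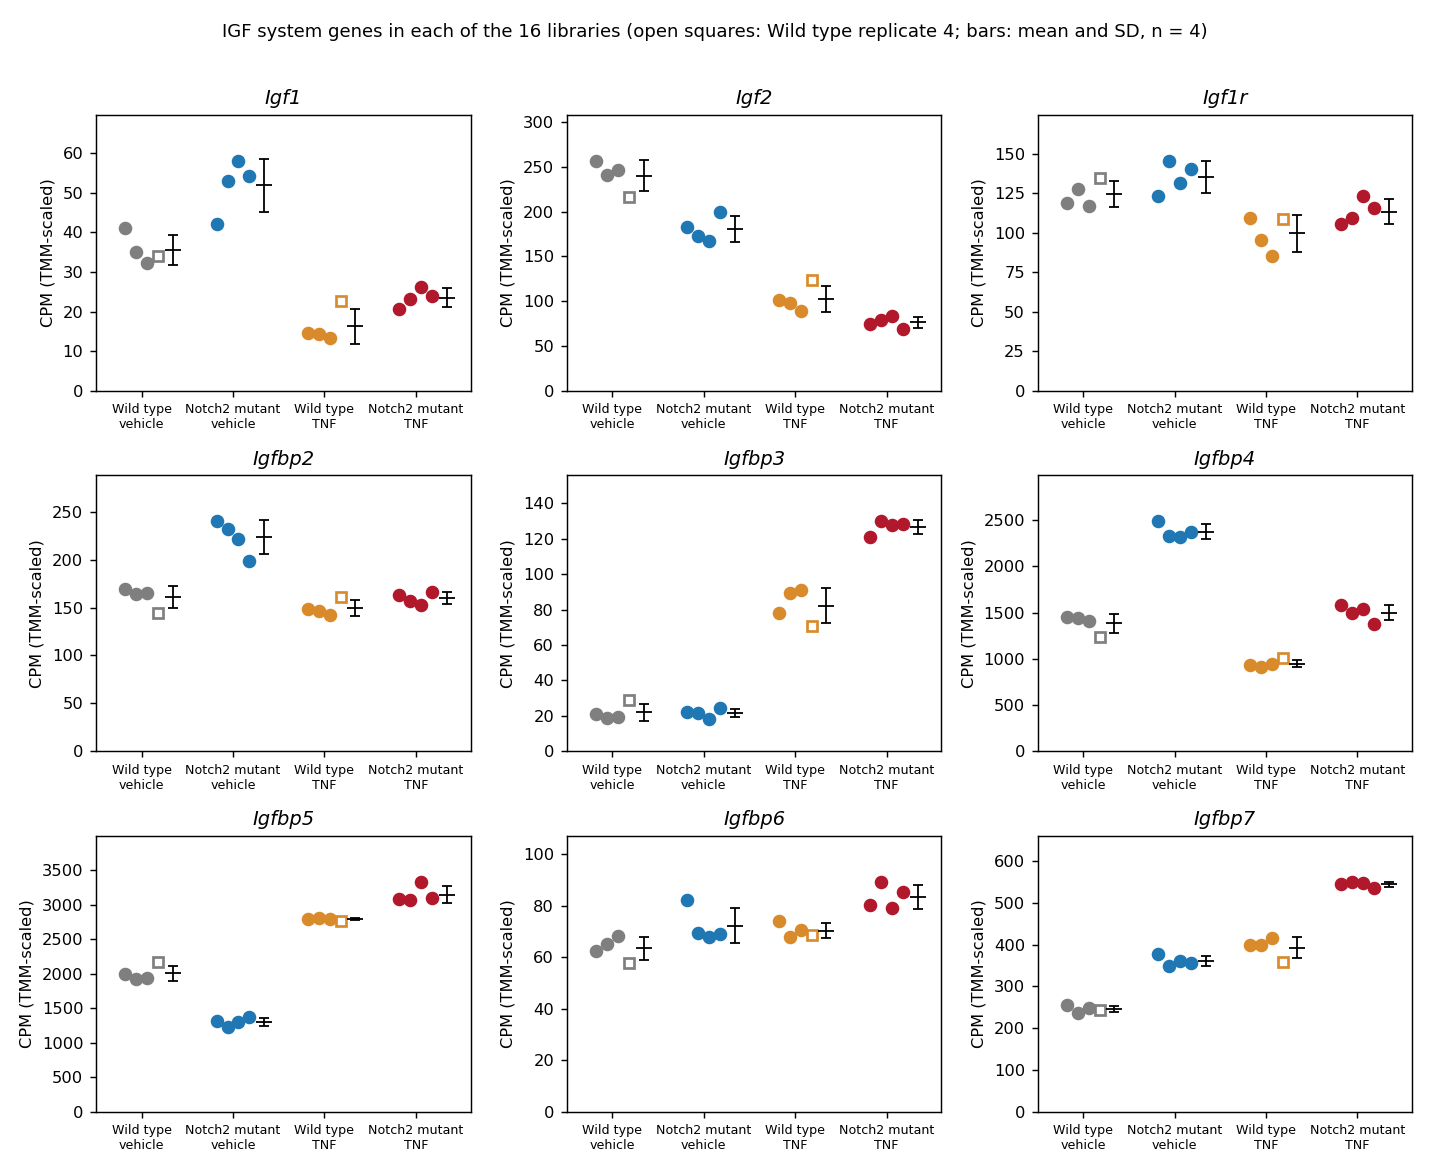
CPM (linear axis, TMM-scaled) of the 9 IGF system genes in each of the 16 libraries, by group, with the mean and SD (n = 4) beside the points; open squares mark Wild type replicate 4. Igf1 and Igf2 are lower with TNF in both genotypes, Igfbp3 is at 70.6 to 129.9 CPM with TNF and 18.5 to 28.8 CPM with vehicle, and Igfbp5 is lowest in Notch2 mutant cells with vehicle.

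Both ligand genes fell with TNF, in both genotypes. Igf1 (ENSMUSG00000020053, GRCm39 chr10:87693642-87772904, plus strand) encodes the ligand that mediates much of the action of growth hormone. In Wild type cells it was at 41.0, 34.95, 32.2 and 34.2 CPM with vehicle and at 14.5, 14.3, 13.3 and 22.8 CPM with TNF in replicates 1 to 4. The Notch2 mutant values were 42.2, 53.0, 58.1 and 54.2 CPM with vehicle and 20.65, 23.3, 26.3 and 24.0 CPM with TNF. The vehicle and TNF libraries did not overlap in either genotype, and Wild type TNF replicate 4 was well above the other 3 of its group. The log2 change of Igf1 with TNF was -1.117 in Wild type cells (SE 0.18, adjusted p = 0.00151) and -1.145 in Notch2 mutant cells (SE 0.095, adjusted p = 5.43e-10). With vehicle it was 1.47-fold higher in Notch2 mutant than in Wild type cells (log2 0.55, SE 0.09, adjusted p = 0.000501), and every mutant library was above every Wild type library. With TNF the difference was of like size, 0.53, but missed the threshold (95% confidence interval 0.21 to 0.86, adjusted p = 0.06935). Without the replicate 4 libraries of Wild type cells, the log2 change with TNF was -1.36 in these cells, and the differences between genotypes were 0.53 with vehicle (adjusted p = 0.0104) and 0.74 with TNF (adjusted p = 6.04e-06), so that the call with TNF turned on that library. With all libraries kept, the call was made with DESeq2 (adjusted p = 0.00458) and with edgeR's filterByExpr (adjusted p = 0.0444).

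Igf2 (ENSMUSG00000048583, chr7:142204503-142220694, minus strand) encodes the ligand that is abundant before birth, from an imprinted locus shared with the noncoding RNA H19. Wild type cells held 257, 241, 246 and 216 CPM with vehicle and 101.7, 97.7, 88.55 and 123 CPM with TNF. Notch2 mutant cells held it at 183, 173, 167 and 199 CPM with vehicle and at 74.6, 78.9, 83.7 and 69.0 CPM with TNF. The 4 groups were fully separated, with Wild type above Notch2 mutant under either treatment. Its log2 change with TNF was -1.215 in Wild type (SE 0.094, adjusted p = 2.2e-06) and -1.22 in Notch2 mutant cells (SE 0.07, adjusted p = 3.225e-14). Relative to Wild type cells, the level in Notch2 mutant cells was 0.756-fold with vehicle (log2 -0.40, SE 0.06, adjusted p = 4.64e-05) and 0.756-fold with TNF (log2 -0.40, SE 0.085, adjusted p = 0.003). Without Wild type replicate 4 these values were -1.365 for TNF, and -0.46 and -0.32 for the genotype with vehicle and with TNF, all still past the threshold. The 2 ligands thus differed in opposite directions between genotypes with vehicle. Of its 6162 exon bases Igf2 shares 3599 with Gm49394 on the same strand, a gene with 5 counts over all libraries, and 254 with Igf2os on the opposite strand, with 2061 counts against 44270 for Igf2. Reads on shared bases may have been counted for neither gene, which would lower the levels of Igf2 per length. Per length, as CPM divided by exon length in kilobases (RPKM), Igf2 exceeded Igf1 by 11.3 ± 1.1 times in Wild type and 5.87 ± 1.0 times in Notch2 mutant cells with vehicle, and by 10.8 ± 1.2 and 5.42 ± 0.52 times with TNF (SD, n = 4).

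Igf1r (ENSMUSG00000005533, chr7:67601518-67883416, plus strand), which encodes the receptor for both ligands, changed little with TNF. Its levels in Wild type cells were 119, 128, 117 and 134.5 CPM with vehicle and 109, 95.2, 85.2 and 109 CPM with TNF. Notch2 mutant cells held 123, 146, 131.5 and 141 CPM with vehicle and 105.5, 109, 123 and 116 CPM with TNF. The treatments did not overlap within a genotype, although in Notch2 mutant cells the lowest vehicle value, 123.2 CPM, was next to the highest TNF value, 123.0 CPM. Igf1r fell with TNF, with log2 changes of -0.32 in Wild type (SE 0.082, adjusted p = 0.00641) and -0.26 in Notch2 mutant cells (SE 0.067, adjusted p = 0.00254). The genotypes overlapped under both treatments, with a log2 difference of 0.13 with vehicle (95% confidence interval 0.01 to 0.24, adjusted p = 0.214) and 0.20 with TNF (0.046 to 0.35, adjusted p = 0.12). Igf1r shares 1247 exon bases with Pgpep1l on the opposite strand, which had 76 counts. Without Wild type replicate 4 the change with TNF was -0.32, and the genotype differences of 0.16 and 0.23 stayed short of the threshold.

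**Figure D2:**
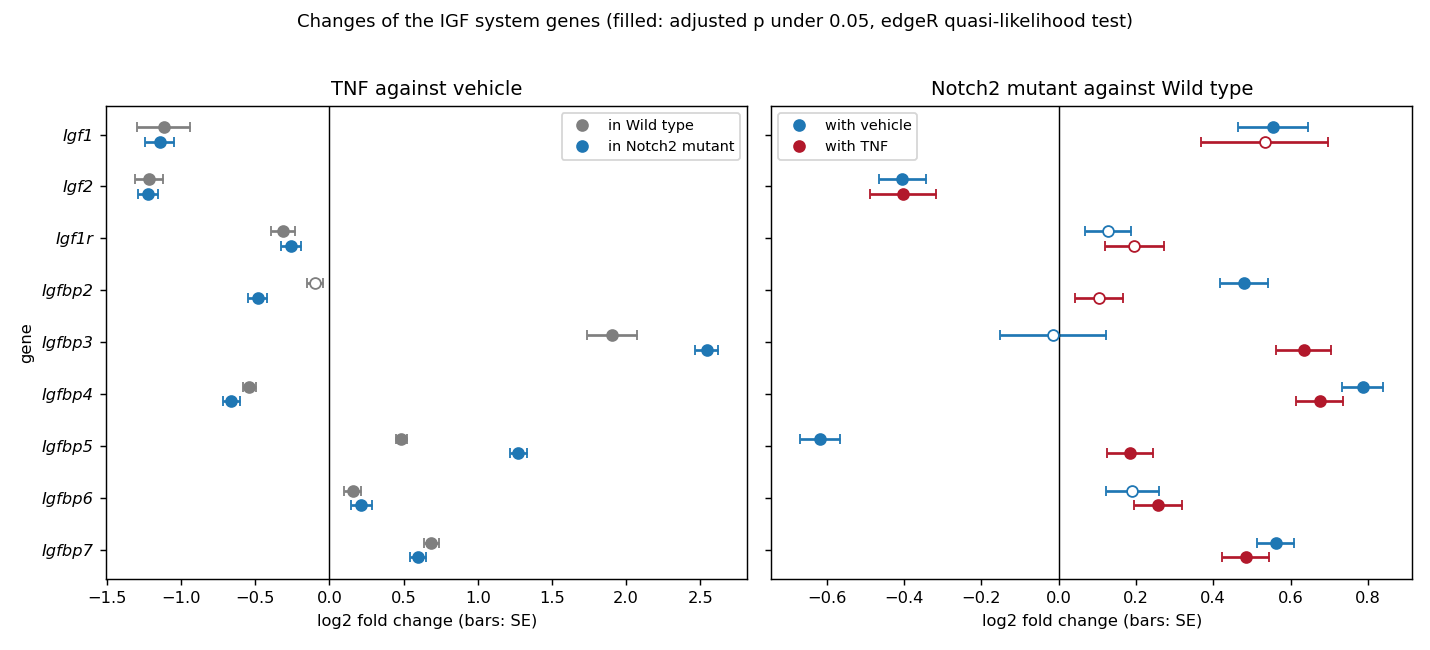
Log2 fold change of each IGF system gene with TNF in each genotype (left) and between genotypes under each treatment (right), with bars of 1 SE and filled points at an adjusted p under 0.05. The 2 ligand genes lie near -1.1 to -1.2 with TNF, Igfbp3 at 1.91 and 2.54, and Igfbp5 changes sign between the vehicle (-0.62) and TNF (0.18) comparisons of genotypes.

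The binding protein genes moved in both directions, and the promoters of 3 of them are shown because with all libraries these genes had the largest rise with TNF (Igfbp3), the largest difference between genotypes (Igfbp4) and the largest difference in response (Igfbp5). The sequences are the 250 bases before the annotated RefSeq start of GRCm38.p6, a build other than that of the gene positions, and are written 5′ to 3′ on the strand of the gene. Capitals mark a match to a searched motif on either strand. The motifs were TGGGAA, the core letters bound by the Notch partner RBPJ, TATAAA, and the NF-κB consensus, and they were found in 21.6%, 12.4% and 3.9% of 32817 promoters. All 9 genes matched an entry in the RefSeq promoter table, with 13 promoters between them.
Igfbp3, chr11:7213924-7214173, minus strand: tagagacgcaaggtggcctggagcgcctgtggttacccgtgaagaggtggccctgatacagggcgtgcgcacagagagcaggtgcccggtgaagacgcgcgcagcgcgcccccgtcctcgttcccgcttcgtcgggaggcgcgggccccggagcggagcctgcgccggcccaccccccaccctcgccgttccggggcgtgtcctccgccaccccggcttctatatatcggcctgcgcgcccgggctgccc
Igfbp4, chr11:99040994-99041243, plus strand: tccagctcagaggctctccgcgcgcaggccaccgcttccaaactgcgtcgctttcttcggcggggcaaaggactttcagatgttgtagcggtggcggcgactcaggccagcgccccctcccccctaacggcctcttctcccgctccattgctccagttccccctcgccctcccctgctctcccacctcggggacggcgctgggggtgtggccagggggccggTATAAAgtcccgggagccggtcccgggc
Igfbp5, chr1:72874866-72875115, minus strand: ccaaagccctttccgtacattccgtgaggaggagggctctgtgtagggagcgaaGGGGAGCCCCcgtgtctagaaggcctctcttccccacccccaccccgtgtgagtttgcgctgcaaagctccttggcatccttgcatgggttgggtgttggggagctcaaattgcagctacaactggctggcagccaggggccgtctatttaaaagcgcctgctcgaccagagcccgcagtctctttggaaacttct
The Igfbp5 window held the NF-κB consensus with its first base 196 bases before the start, that of Igfbp4 held TATAAA at 28 bases, and the Igfbp3 window held none of the 3 motifs. TGGGAA was found in windows of Igf1 (at 91 bases) and Igf2 (at 47, 110 and 158 bases in 2 windows), and TATAAA in that of Igfbp6 (at 148 bases). A match in these windows was taken as a description of the letters and not as a site of binding.

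Igfbp3 (ENSMUSG00000020427, GRCm39 chr11:7156086-7164179, minus strand), the gene of the main carrier of IGFs in serum, had the largest response to TNF of the 9 genes. It was at 21.2, 18.65, 19.1 and 28.8 CPM with vehicle and 77.9, 89.7, 91.0 and 70.6 CPM with TNF in Wild type cells. The Notch2 mutant values were 22.2, 21.45, 18.5 and 24.3 CPM with vehicle and 121, 129.9, 128 and 128 CPM with TNF. Genotypes overlapped with vehicle and were separate with TNF, and Wild type replicate 4 was the highest of its group with vehicle and the lowest with TNF. Igfbp3 rose 3.75-fold in Wild type (log2 1.91, SE 0.17, adjusted p = 8.75e-05) and 5.83-fold in Notch2 mutant cells (log2 2.54, SE 0.076, adjusted p = 1.935e-20). Between genotypes the log2 difference was -0.0155 with vehicle (95% confidence interval -0.28 to 0.25, adjusted p = 0.97) and 0.63 with TNF (SE 0.071, adjusted p = 2.63e-07). The difference in the response itself, 0.64 on the log2 scale (95% confidence interval 0.30 to 0.98), missed the threshold (adjusted p = 0.17). Without the replicate 4 libraries of Wild type cells the rise in these cells was 2.14, the genotype differences were 0.14 (adjusted p = 0.438) and 0.55 (adjusted p = 4.47e-07), and the difference in response was 0.41 (adjusted p = 0.07265). With DESeq2 the difference in response passed the threshold (0.66, adjusted p = 0.00689).

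Igfbp5 (ENSMUSG00000026185, chr1:72897091-72914043, minus strand) encodes the binding protein that associates with extracellular matrix and is expressed widely in skeletal cells. In Wild type cells the levels were 2002, 1921, 1943 and 2165 CPM with vehicle and 2797, 2814, 2800.0 and 2768 CPM with TNF. Levels in Notch2 mutant cells were 1309, 1232, 1294 and 1379 CPM with vehicle and 3082, 3073, 3333 and 3096 CPM with TNF. The 4 groups did not overlap, and their order was Notch2 mutant vehicle, Wild type vehicle, Wild type TNF and Notch2 mutant TNF from lowest to highest. Igfbp5 rose 1.40-fold with TNF in Wild type (log2 0.48, SE 0.038, adjusted p = 1.37e-09) and 2.42-fold in Notch2 mutant cells (log2 1.27, SE 0.057, adjusted p = 1.38e-16). The difference in response was 0.79 on the log2 scale (SE 0.068, 95% confidence interval 0.66 to 0.93, adjusted p = 1.01e-09), with the smallest p of the 21321 genes tested. Notch2 mutant cells held less Igfbp5 than Wild type cells with vehicle (0.652-fold, log2 -0.62, SE 0.051, adjusted p = 1.15e-08) and more with TNF (1.14-fold, log2 0.18, SE 0.059, adjusted p = 0.0422). The last of these calls was lost when any library but Notch2 mutant TNF replicate 4 was left out (log2 0.15 to 0.20 over all 8), and with Wild type TNF replicate 4 left out the adjusted p was 0.0511. The difference in response was 0.75 without the replicate 4 libraries of Wild type cells (adjusted p = 3.095e-09), the rise in these cells was 0.53, and the difference with vehicle was -0.59.

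Igfbp2 (ENSMUSG00000039323, chr1:72863606-72891634, plus strand) is the neighbor of Igfbp5, with 5456 bases and no protein-coding gene between the 3′ ends of the 2 genes. Its protein is a binding protein prominent in fetal tissues. Levels in Wild type cells were 169.8, 164, 165 and 144 CPM with vehicle and 149, 146, 142 and 161 CPM with TNF. In Notch2 mutant cells they were 240.0, 232, 222 and 199 CPM with vehicle and 163.5, 157, 152 and 166 CPM with TNF. Only the Notch2 mutant vehicle libraries stood apart from the rest. Igfbp2 fell by 0.48 with TNF on the log2 scale in Notch2 mutant cells (SE 0.064, adjusted p = 4.99e-07), and its change in Wild type cells was -0.10 (95% confidence interval -0.20 to 0.01, adjusted p = 0.172). With vehicle it was 1.39-fold higher in Notch2 mutant cells (log2 0.48, SE 0.062, adjusted p = 8.93e-06), and with TNF the difference was 0.10 (-0.018 to 0.22, adjusted p = 0.355). The difference in response was -0.38 (SE 0.089, adjusted p = 0.0354), opposite in sign to that of its neighbor. It was not called once the replicate 4 libraries of Wild type cells were left out (-0.29, adjusted p = 0.1065), when Igfbp2 passed the test in Wild type cells (-0.18, adjusted p = 0.000823). The genotype differences were then 0.42 with vehicle (adjusted p = 1.31e-05) and 0.13 with TNF (adjusted p = 0.211).

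**Figure D3:**
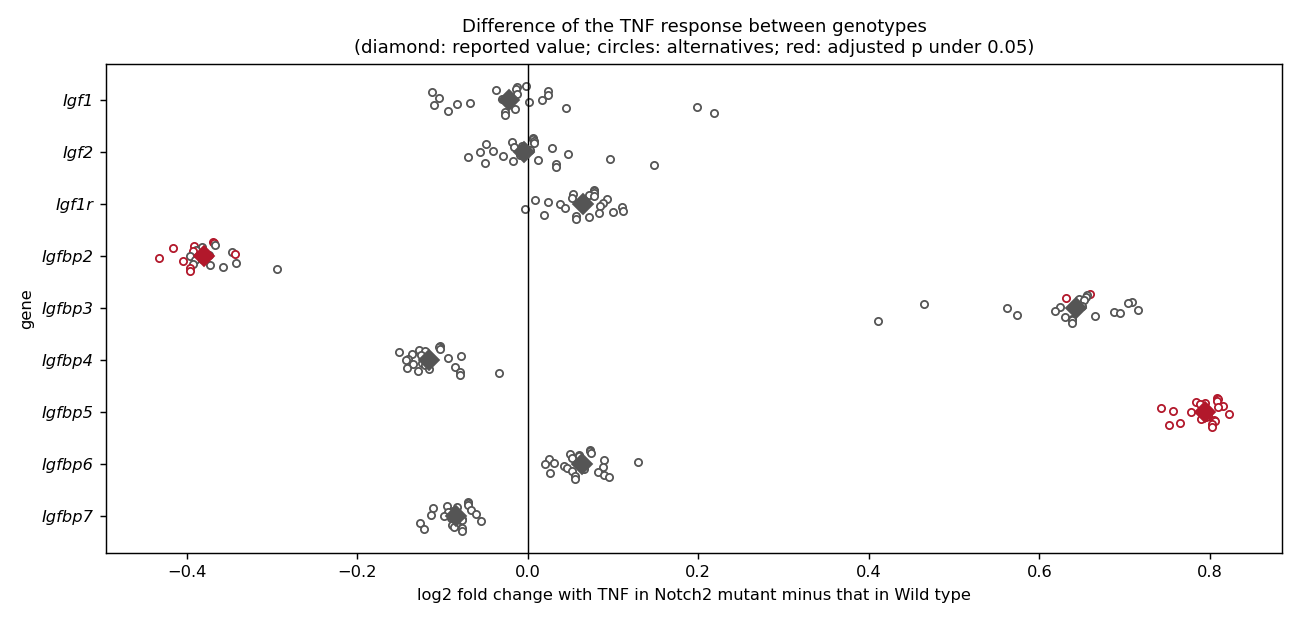
Difference of the log2 change with TNF between Notch2 mutant and Wild type cells (x axis) for the 9 genes (y axis), as reported (diamond) and under the alternatives, among them each library left out (circles), in red at an adjusted p under 0.05. Igfbp5 stays between 0.74 and 0.82 with any 1 library left out, Igfbp2 crosses the threshold, and Igf1 and Igf2 lie on both sides of 0.

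Igfbp4 (ENSMUSG00000017493, chr11:98932064-98945218, plus strand), whose protein is cleaved by PAPP-A to release IGFs, showed the largest difference between genotypes of the 9 genes under either treatment when all libraries were kept, whereas without Wild type TNF replicate 4 that of Igf1 with TNF was larger (0.74 against 0.69). It was at 1456, 1439, 1409 and 1232 CPM with vehicle and 932, 912, 938 and 1007 CPM with TNF in Wild type cells. In Notch2 mutant cells the values were 2486, 2323, 2317 and 2374 CPM with vehicle and 1576, 1499, 1538 and 1381 CPM with TNF. No group overlapped the one it was compared with. The level in Notch2 mutant cells was 1.73-fold with vehicle (log2 0.79, SE 0.0535, adjusted p = 3.91e-10) and 1.60-fold with TNF (log2 0.68, SE 0.061, adjusted p = 4.38e-09) that of Wild type cells. It fell with TNF, with log2 changes of -0.54 in Wild type (SE 0.045, adjusted p = 2.84e-09) and -0.66 in Notch2 mutant cells (SE 0.057, adjusted p = 1.8e-10), and the difference in response was -0.12 (95% confidence interval -0.27 to 0.03, adjusted p = 0.717). Without Wild type replicate 4 the genotype differences were 0.73 with vehicle and 0.69 with TNF, and the change in Wild type cells was -0.62. The difference in response was then -0.033 (adjusted p = 0.961).

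Igfbp7 (ENSMUSG00000036256, chr5:77493130-77555931, minus strand) rose with TNF and was higher in Notch2 mutant cells. The Wild type libraries held 255, 237, 247 and 243 CPM with vehicle and 399, 399, 416.5 and 358 CPM with TNF. Notch2 mutant libraries were at 378, 348, 360.0 and 356 CPM with vehicle and 544, 550.4, 547 and 536 CPM with TNF. The groups did not overlap in any of the 4 comparisons. Igfbp7 rose 1.61-fold in Wild type (log2 0.69, SE 0.051, adjusted p = 5.16e-10) and 1.51-fold in Notch2 mutant cells (log2 0.60, SE 0.055, adjusted p = 7.105e-10). It was higher in Notch2 mutant cells by 0.56 with vehicle (SE 0.048, adjusted p = 1.69e-08) and 0.48 with TNF (SE 0.06, adjusted p = 1.59e-06). Without Wild type replicate 4 the rise was 0.72 and the genotype differences 0.55 and 0.43. Igfbp7 shares 747 exon bases with Polr2b on the opposite strand, and as the strand setting of the counting is not given, reads of the 2 genes there may not be told apart.

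Igfbp6 (ENSMUSG00000023046, chr15:102052697-102057953, plus strand), whose protein prefers IGF2 over IGF1, had no log2 change above 0.26 in any comparison. Its values in Wild type cells were 62.4, 65.0, 68.4 and 57.8 CPM with vehicle and 74.1, 67.9, 70.6 and 68.7 CPM with TNF. In Notch2 mutant cells they were 82.25, 69.3, 67.85 and 69.0 CPM with vehicle and 80.4, 89.2, 79.2 and 85.25 CPM with TNF. The vehicle and TNF libraries overlapped in both genotypes. Its log2 rises with TNF, 0.16 in Wild type (SE 0.056, adjusted p = 0.027) and 0.21 in Notch2 mutant cells (SE 0.071, adjusted p = 0.0153), each lost the threshold in 4 of 8 fits with 1 library left out, and the first was 0.12 without Wild type replicate 4 (adjusted p = 0.0706). With TNF it was 1.195-fold higher in Notch2 mutant cells (log2 0.26, SE 0.063, adjusted p = 0.00666), a call lost without Notch2 mutant TNF replicate 2 (0.21, adjusted p = 0.07045), and with vehicle the difference was 0.19 (95% confidence interval 0.056 to 0.33, adjusted p = 0.0854). Without Wild type replicate 4 the genotype differences were 0.14 with vehicle (adjusted p = 0.237) and 0.23 with TNF (adjusted p = 0.0203).

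Compared per length, the order of the members differed between groups. In Wild type cells with vehicle Igfbp5 (334 ± 18 RPKM) and Igfbp4 (313 ± 23 RPKM) overlapped at the top (SD, n = 4). Igfbp2 followed at 77.3 ± 5.4, Igfbp6 and Igfbp7 overlapped at 45.95 ± 3.2 and 45.05 ± 1.4, Igf2 was at 39.0 ± 2.8, Igf1r and Igfbp3 overlapped at 6.30 ± 0.41 and 6.16 ± 1.3, and Igf1 was lowest at 3.48 ± 0.37 RPKM. In Notch2 mutant cells with vehicle Igfbp4 led at 537 ± 18 RPKM, without overlap with Igfbp5 at 217 ± 10 RPKM. The ratio of Igfbp5 to Igfbp4 was 1.08 ± 0.15 in Wild type and 0.404 ± 0.019 in Notch2 mutant cells with vehicle, and 2.18 ± 0.11 and 1.55 ± 0.093 with TNF. In Wild type cells with vehicle it was 1.29 in replicate 4 and 0.983 to 1.015 in the other 3 libraries. By the mean, Igfbp3 was below Igf1r with vehicle, where their ranges overlapped, and above Igf2 with TNF in both genotypes, at 23.1 ± 2.7 RPKM in Wild type, where its range overlapped that of Igf2, and 35.6 ± 1.1 RPKM in Notch2 mutant cells.

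**Figure D4:**
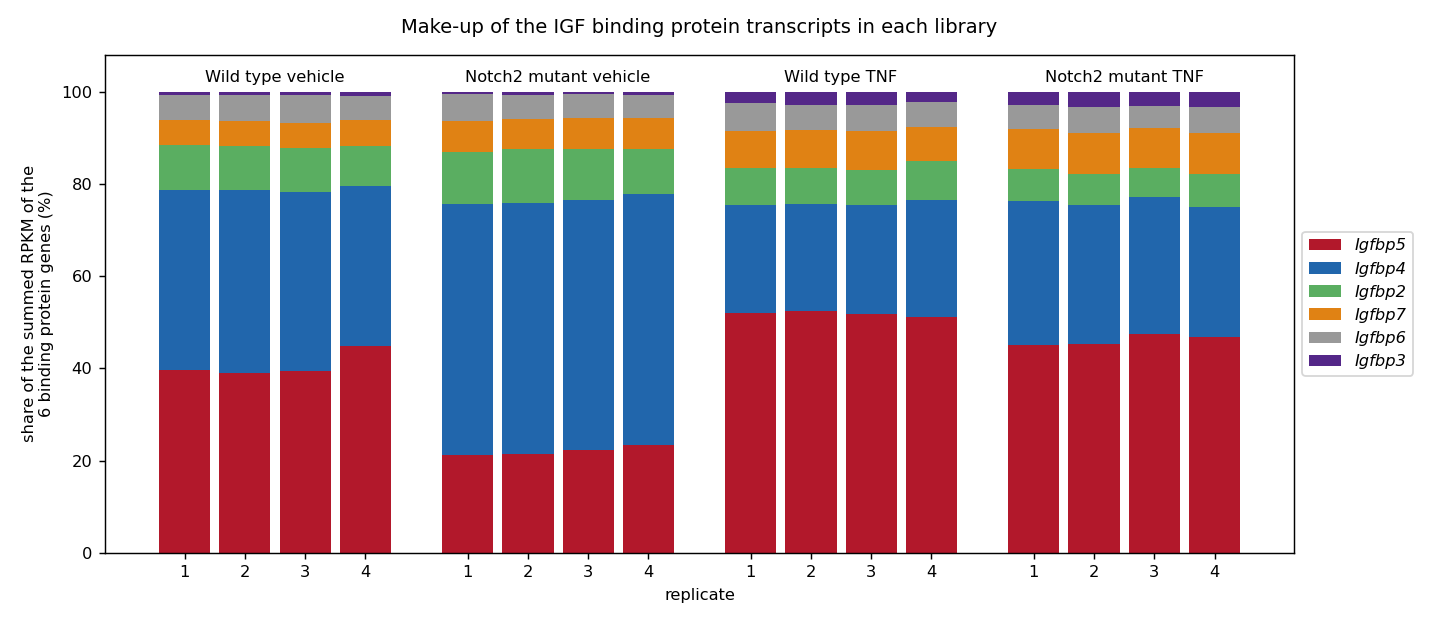
Share of each gene (%, y axis) in the summed RPKM of the 6 binding protein genes, in each library (x axis, replicate within group). Igfbp4 makes up 54.2 to 54.6% in Notch2 mutant cells with vehicle, and Igfbp5 makes up 51.15 to 52.5% in Wild type cells with TNF.

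The summed level of the 6 binding protein genes was 822 ± 16 RPKM in Wild type and 986 ± 31 RPKM in Notch2 mutant cells with vehicle, and 898 ± 3.7 and 1136 ± 27 RPKM with TNF. That of the 2 ligand genes was 42.4 ± 3.0 and 34.4 ± 2.2 RPKM with vehicle, and 18.3 ± 2.8 and 14.7 ± 1.1 RPKM with TNF. Binding protein transcripts thus exceeded ligand transcripts by 19.4 ± 1.1, 28.8 ± 1.9, 49.9 ± 7.0 and 77.4 ± 4.4 times in the groups Wild type vehicle, Notch2 mutant vehicle, Wild type TNF and Notch2 mutant TNF, and the ranges of these ratios did not overlap. The ratios would be too high if reads on the shared exon bases of Igf2 were counted for no gene. They also depend on the lengths used, the union of all exons annotated for a gene, 10234 bases for Igf1 and 6162 for Igf2. Where the transcripts in these cells are shorter than that union, the level per length is too low. Which transcripts were present was not tested. The ratios also include Igfbp7, whose protein binds IGFs weakly. Wild type replicate 4 was at the edge of its group under both treatments, at 20.9 with vehicle (others 18.45 to 19.3) and 40.6 with TNF (others 50.03 to 57.4). Igfbp5 made up 40.7 ± 2.8% of the binding protein sum in Wild type and 22.0 ± 1.0% in Notch2 mutant cells with vehicle, and 51.8 ± 0.55% and 46.1 ± 1.1% with TNF. The shares of Igfbp4 were 38.1 ± 2.3, 54.5 ± 0.18, 23.9 ± 0.96 and 29.8 ± 1.2% in the same order of groups.

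Markers of other cell types moved with the genotype. The 9 fibroblast and perichondrium, 10 macrophage, 6 endothelial and 5 smooth muscle and pericyte markers were set beside the 11 chondrocyte markers. All 11 chondrocyte markers were lower in Notch2 mutant cells, and their summed level was 28941 to 34016 CPM against 45709 to 49866 CPM in Wild type cells with vehicle, and 18533 to 20899 against 33964 to 39910 CPM with TNF. Macrophage markers summed to 131 to 154 CPM in Notch2 mutant and 68.4 to 75.5 CPM in Wild type cells with vehicle, and to 168 to 193 and 78.6 to 93.9 CPM with TNF, with Cd163 at 0 in all Wild type vehicle libraries. In the endothelial list the sums were 15.98 to 20.6 and 6.85 to 9.11 CPM with vehicle, and 17.7 to 24.0 and 9.15 to 12.1 CPM with TNF. Smooth muscle and pericyte markers summed to 2687 to 3099 CPM in Notch2 mutant and 1339 to 1580 CPM in Wild type cells with vehicle. With TNF the sums were 1435 to 1705 and 722 to 886 CPM. Acta2 made up most of this sum, at a mean of 2739 of 2848 CPM in Notch2 mutant cells with vehicle. Skeletal muscle markers, 6 in number, summed to 20.4 to 24.8 CPM in Wild type and 32.5 to 39.4 CPM in Notch2 mutant cells with vehicle. Of these lists 9 of 10 macrophage, 4 of 6 endothelial, 4 of 5 smooth muscle and pericyte, 3 of 6 skeletal muscle and 5 of 9 fibroblast and perichondrium markers were higher in Notch2 mutant cells with vehicle, and 2 of the last were lower. Over all genes tested 6.19% were higher and 4.35% lower. The part of these cell types in the differences of the IGF system genes between genotypes was not tested. In such bulk libraries fewer cells that express a gene and less RNA of it per cell cannot be told apart.

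With TNF, 10 of the 11 chondrocyte markers fell in each genotype, where 20.9% of all genes fell in Wild type and 21.9% in Notch2 mutant cells. Of 8 TNF response genes, 6 rose in Wild type and 8 in Notch2 mutant cells, where 23.3% and 22.6% of all genes rose. Their summed level was 6844 to 8669 CPM over the TNF libraries of both genotypes, against 113 to 125 CPM in Notch2 mutant vehicle libraries. It was 104.7 to 1289 CPM in Wild type vehicle libraries, the highest in replicate 4. The counts of 6 and 8 include that library and do not compare the response of the genotypes. None of the 8 genes was called for the difference in response.

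The other genes of the pathway were taken from 5 lists. Their counts stand beside the shares of all genes called. With TNF these were 23.3% higher and 20.9% lower in Wild type, and 22.6% and 21.9% in Notch2 mutant cells. Between genotypes they were 6.19% and 4.35% with vehicle, and 5.63% and 4.31% with TNF. Of the 6 other receptors and binding proteins, Igfbp1, the neighbor of Igfbp3 across 3539 bases, had no count in any library, and Igfbpl1 was too low to test. Of the 4 tested with TNF, 2 rose in Wild type and 3 in Notch2 mutant cells. Igfals, which encodes the acid-labile subunit that stabilizes IGF complexes with IGFBP3 or IGFBP5, rose by 2.38 (SE 0.27, adjusted p = 0.000265) and 2.62 on the log2 scale (SE 0.16, adjusted p = 8.74e-13) in Wild type and Notch2 mutant cells. Its mean level remained low, at 25.3 ± 1.4 and 17.7 ± 1.7 CPM with TNF, and was lower in Notch2 mutant than in Wild type cells there (log2 -0.51, SE 0.09, adjusted p = 0.000224). Igf2r, the receptor that clears IGF2, rose in Notch2 mutant cells (log2 0.58, SE 0.064, adjusted p = 2.36e-08) and was lower in them with vehicle (-0.39, SE 0.075, adjusted p = 0.00272). Its change in Wild type cells was 0.21 (SE 0.14, adjusted p = 0.299). No gene tested from this list was called for the difference in response. Insrr, an orphan relative of the insulin receptor, passed the test in both genotypes, with 0 counts in all Notch2 mutant vehicle libraries and 8 to 56 counts with TNF.

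Of the 6 genes for proteases of the binding proteins and their inhibitors, 5 fell and 1, Htra1, rose with TNF in each genotype. Htra1 had the highest mean of the list with TNF, 282 CPM in Wild type and 239 CPM in Notch2 mutant cells (n = 4). In Wild type cells its rise was 0.31 (SE 0.045, adjusted p = 6.79e-06). With TNF it was lower in Notch2 mutant than in Wild type cells (-0.24, SE 0.064, adjusted p = 0.0154), a call lost in 3 of 8 fits with 1 library left out. Pappa and Pappa2 encode proteases that cut binding proteins and so release IGFs, and the log2 change of Pappa was -0.75 (SE 0.17, adjusted p = 0.01055) in Wild type and -0.82 (SE 0.10, adjusted p = 1.58e-05) in Notch2 mutant cells. The genes of their inhibitors, the stanniocalcins Stc1 and Stc2, also fell, with log2 changes of -2.39 and -3.07 for Stc1 and -0.83 and -0.95 for Stc2. Adam12, a metalloprotease that cuts IGFBP3 and IGFBP5, fell with TNF (-1.05 and -0.83) and was higher in Notch2 mutant cells by 0.64 with vehicle (SE 0.056, adjusted p = 2.045e-08) and 0.87 with TNF (SE 0.082, adjusted p = 1.12e-08). Between genotypes, 3 of the 6 were higher and 2 lower with vehicle, and 1 was higher and 2 lower with TNF. Stc2 was lower in Notch2 mutant cells under both treatments (-0.62 and -0.73), and Pappa2 was higher with vehicle (0.52, SE 0.088, adjusted p = 0.000237).

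**Figure D5:**
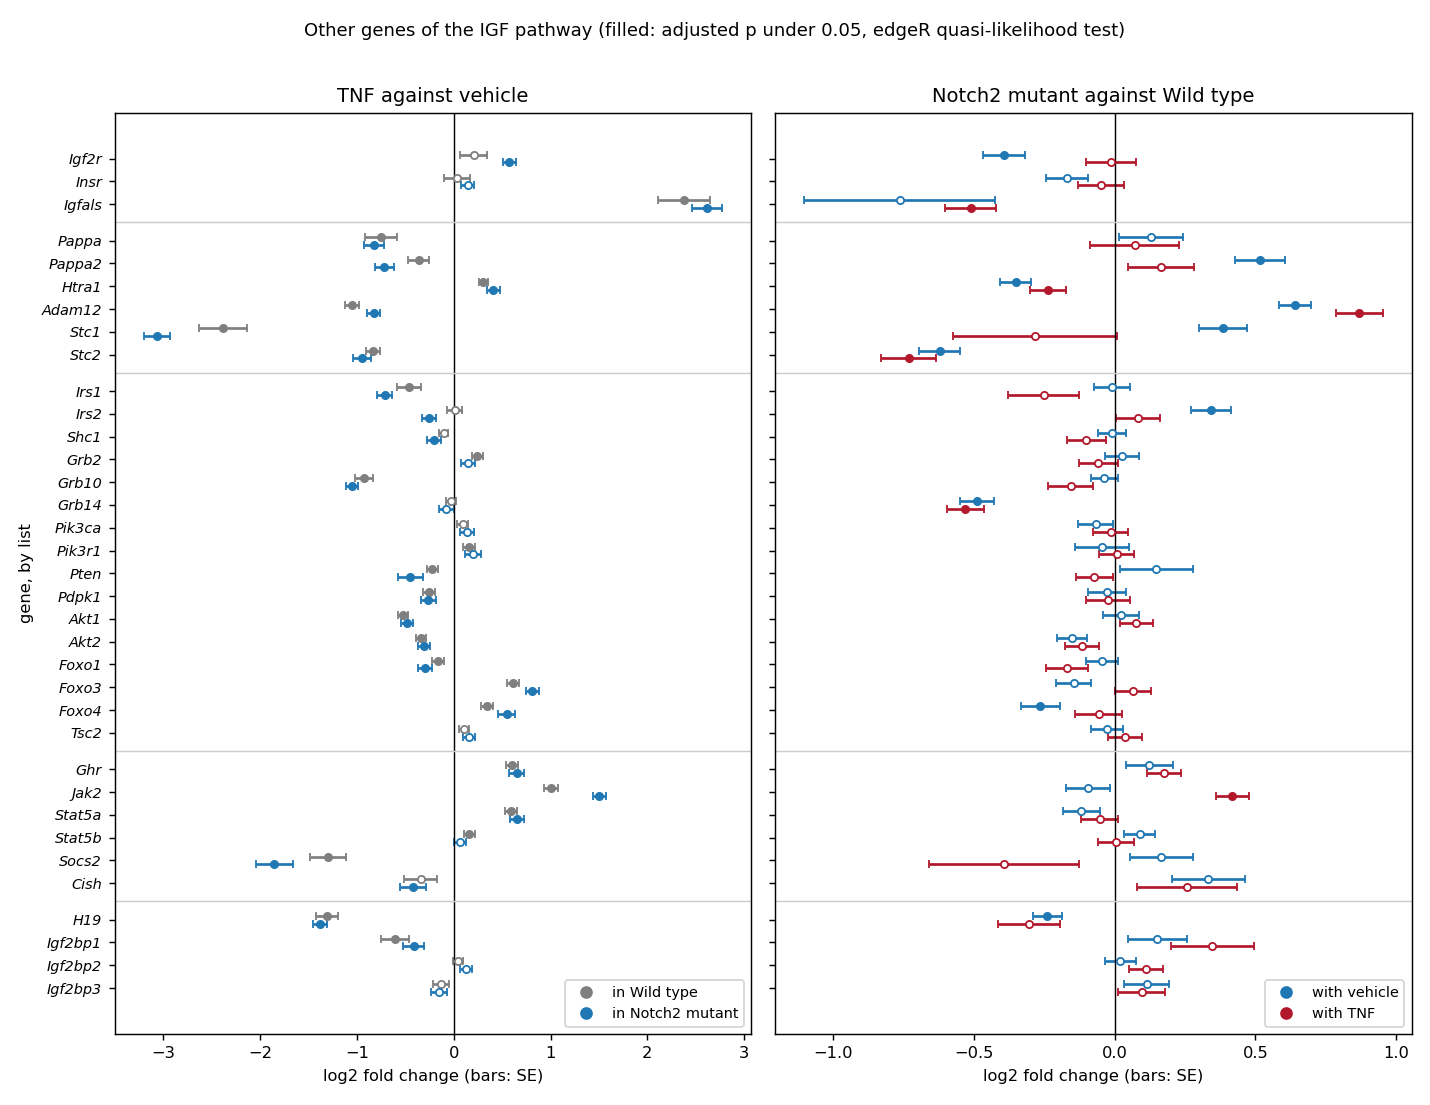
Log2 fold change of the other IGF pathway genes with TNF (left) and between genotypes (right), with bars of 1 SE, filled at an adjusted p under 0.05; lines separate receptors and carriers, proteases and inhibitors, intracellular signaling, the growth hormone axis, and Igf2 locus and mRNA binding genes. Stc1 lies at -2.39 and -3.07 with TNF and Igfals at 2.38 and 2.62. Not drawn are Igfbp1 and Igfbpl1, at or near 0 counts, and Insrr, at 0 counts in every Notch2 mutant vehicle library.

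Of 16 intracellular signaling genes, 4 rose and 7 fell with TNF in Wild type cells, where 23.3% of all genes rose and 20.9% fell. In Notch2 mutant cells 2 rose and 9 fell, beside 22.6% and 21.9% of all genes. Grb10, an adaptor that restrains the receptor, fell, with log2 changes of -0.93 (SE 0.088, adjusted p = 2.36e-05) and -1.06 (SE 0.062, adjusted p = 6.43e-14). Irs1, the docking protein of the activated receptor, fell too (-0.46 and -0.71), as did Akt1 (-0.53 and -0.48), while Foxo3, a transcription factor held in check by AKT, rose by 0.61 and 0.81. Foxo4 rose by 0.35 and 0.55. Between genotypes 3 of the 16 genes passed the test with vehicle and 1 with TNF, and Grb14 was lower in Notch2 mutant cells in both (-0.49 and -0.53). With vehicle, Irs2 was higher (0.34) and Foxo4 lower (-0.26) in Notch2 mutant cells. In the growth hormone axis, 4 of 6 genes rose and 1 fell in Wild type cells, and 3 rose and 2 fell in Notch2 mutant cells. Jak2, the kinase of the growth hormone receptor, rose by 1.00 in Wild type and 1.505 in Notch2 mutant cells, and the difference in response was 0.51 (SE 0.096, adjusted p = 0.00542). Ghr rose by 0.61 and 0.65, Stat5a rose by 0.59 and 0.65, and Socs2, a feedback inhibitor of the axis, fell (-1.30 and -1.855). At the Igf2 locus, H19 fell, with log2 changes of -1.31 (SE 0.12, adjusted p = 0.000128) and -1.38 (SE 0.073, adjusted p = 2.635e-13), beside Igf2, and of the 4 genes of that list 2 fell and none rose in each genotype. Without both replicate 4 libraries of Wild type cells, all 16 pathway genes taken for their large changes with TNF in these cells kept their call, among them Igfals (2.80), Stc1 (-2.85), Pappa (-0.84), Grb10 (-1.04), Irs1 (-0.56), Socs2 (-1.62) and H19 (-1.44). With the vehicle library alone left out, Irs1 missed the threshold (-0.44, adjusted p = 0.0502). The 9 such genes between genotypes with vehicle and the 6 with TNF kept their calls without the replicate 4 library concerned.

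The genes whose log2 CPM was most like that of a member over the 16 libraries were sought among 9577 genes with a mean of at least 10 CPM. These correlations describe 16 libraries that share the split by treatment and genotype, and carry no test. Igf2 was most like Mest (r = 0.993), Timp3 and Sh3rf2, and Igf1 most like Slc38a4 (r = 0.984), Itga1 and Kirrel1. Igfbp3 was closest to Rab32 (r = 0.994), Slco3a1 and Dram1, and Igfbp7 to Twist2 (r = 0.983), Mgst1 and Col18a1. Igfbp4 was most like Tagln (r = 0.99), a smooth muscle and myofibroblast gene, followed by Aoc3 and Sfrp1. For Igfbp5 the nearest genes were Mgat4a (r = 0.975), Eif3c and Ass1, for Igfbp2 Tmsb4x (r = 0.948), Podn and Lurap1l, for Igf1r Lpp (r = 0.963), Htt and Wnk1, and for Igfbp6 Ecm1 (r = 0.902), Fzr1 and Nfil3. No member was among the 3 nearest genes of another.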

How the data were processed

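Libraries (TruSeq Stranded mRNA, paired-end, NextSeq 500) were trimmed with Trimmomatic 0.39 and aligned by the authors with HISAT2 2.2.1 to GRCm39 with Ensembl 105, per the study's methods. The submitters' processing notes name GRCm38 and HISAT2 2.1.0 instead. The deposited values were raw counts per gene from htseq-count 0.11.0, whose strand setting is not given in the sources used here. The 5 entries that name no gene, 8.81 to 12.1% of each library, were left out.

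Counts were fitted with edgeR 4.0.16 (R 4.3.3, quasi-likelihood, robust, TMM factors) for genes with at least 10 counts summed over the libraries compared, 8 for each comparison of 2 groups and 16 for the difference in response. P values were adjusted by Benjamini-Hochberg over all genes tested and called at 0.05. SEs are the log2 change divided by the root of F. Confidence intervals take the SE with a normal quantile, which makes them narrower than the F test would. RPKM used GENCODE M39 exon lengths, as the union of all exons annotated for a gene, which can exceed the length of any 1 transcript. In that annotation 665 identifiers, with 0.0182% of counts, were absent. Alternatives were DESeq2 1.42.0, other normalization and filters, a replicate block and leaving out libraries. The members and all lists were chosen with earlier results of these data known. Named genes were the 9 members, of each pathway list the up to 4 genes called with the largest log2 changes in a comparison, the check genes Notch2, Heyl and Icam1, and the 3 most alike genes of each member. A pathway gene named through 1 comparison may be given in others, and not every called change of it is printed. Counting error limits the shallowest library most.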

Additional observations from a re-analysis of the deposited data

Results flagged for a closer look

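Over 34 genes (the members, the named pathway genes and the check genes), 135 groups of 4 libraries were searched for a library far from the other 3, and 12 were found. Chance gives about 1 in 20 for independent groups of normally spread values. The genes share the same libraries, and Icam1 had already shown Wild type vehicle replicate 4 apart, so the 12 cannot be set against that rate. Among the members, Igf1 was at 22.8 CPM in Wild type TNF replicate 4 (others 13.3 to 14.5), Igfbp5 at 3333 CPM in Notch2 mutant TNF replicate 3 (others 3073 to 3096) and Igfbp6 at 82.25 CPM in Notch2 mutant vehicle replicate 1 (others 67.85 to 69.3).

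Wild type vehicle replicate 4 was also apart for Insrr (0.476 CPM, others 0), Igfals (8.33 CPM, others 3.43 to 3.81), Akt1 (386 CPM, others 431 to 439.9) and Icam1 (439 CPM, others 34.4 to 40.4). Wild type TNF replicate 4 was apart for Socs2 (9.83 CPM, others 4.96 to 5.77) and H19 (2638 CPM, others 1873 to 2003). Single libraries stood apart for Irs1 (Wild type vehicle replicate 3, 127 CPM, others 143 to 146), Igf2bp1 (Wild type TNF replicate 1, 10.3 CPM, others 6.30 to 6.90) and Grb14 (Wild type TNF replicate 3, 64.8 CPM, others 62.7 to 62.9).

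The change with TNF differed between genotypes, by the test of the difference itself, for Igfbp2 (-0.38 on the log2 scale), Igfbp5 (0.79) and Jak2 (0.51). Without the replicate 4 libraries of Wild type cells, Jak2 was at 0.42 (adjusted p = 0.0153) and Igfbp5 at 0.75 (adjusted p = 3.095e-09). Igfbp2 was then not called (-0.29, adjusted p = 0.1065).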

How the results depend on the processing

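With a log2 change of at least 1 required, 3 and 4 members were called with TNF in Wild type and Notch2 mutant cells, and 0 between genotypes with vehicle, between genotypes with TNF and for the difference in response. Members called for the difference in response, 2 as reported, were 3 by DESeq2 and when only genes without a count were dropped, Igfbp3 being added, and were 1, Igfbp5 alone, with filterByExpr, with the replicate block and without Wild type replicate 4, and 1 to 2 with single libraries left out; Igfbp2 was lost in 10 of those 16 fits. The other counts with 1 library left out were 7 to 9 and 8 to 9 with TNF, and 6 to 7 and 4 to 6 between genotypes. The near-zero difference in response of Igf2 turned sign with DESeq2 (0.00637), RLE factors (0.00634), filterByExpr (0.00680), the block (0.00696), without the shallowest library (0.0329, chosen after seeing the data) and without Wild type replicate 4 (0.15), and that of Igf1 with the block (0.024) and without Wild type replicate 4 (0.22). With single libraries left out, the differences in response were -0.11 to 0.20 for Igf1, -0.0699 to 0.0963 for Igf2 and -0.0033 to 0.11 for Igf1r, and Igfbp3 between genotypes with vehicle was -0.091 to 0.14. Same-numbered libraries did not deviate together throughout (r from -0.28 to 0.26). This check cannot exclude a pairing of the libraries, and none was fitted in the reported values. Under the block, between genotypes with TNF, Igf1 was called (0.61, adjusted p = 0.0002) and Igfbp5 was not (adjusted p = 0.141). The causes were not tested.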

Other observations

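After each group's mean was subtracted, the log2 CPM of Igfbp4 was most like that of Snd1 (r = 0.954) over the 16 libraries, that of Igfbp3 most like Cilp2 (r = 0.926) and that of Igfbp5 like Nhsl1 (r = 0.886), among 9577 genes. None of these genes was among the 3 nearest of the same member before subtraction. Igf1r, by contrast, had Wnk1 among its 3 nearest genes both before (r = 0.953) and after subtraction (r = 0.939). The libraries share depth and handling as well as group, and these values are descriptions with no test.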
